A study of Mus musculus with 12 samples.

Results

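The genes described here encode the core proteins of the spliceosomal small nuclear ribonucleoproteins (snRNPs) and relatives that carry the same family names. They were chosen by symbol alone, as protein-coding genes whose symbol starts with Snrp, or with Lsm, Sf3a, Sf3b or Prpf and a number. Of the 49315 genes in the count tables, 21734 were protein-coding and 47 met the rule, and 3 pseudogenes with matching symbols were left out. All 47 members had enough counts to be among the 15917 genes tested. The label fits most of them: 6 of the 47, Lsm1, Lsm10, Lsm11, Lsm12, Lsm14a and Lsm14b, are LSm proteins with other roles and are kept apart below. The rule also passes over snRNP proteins with other names, such as Snrnp70, and 22 of these form a separate list.

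RNA was sequenced from mouse embryonic fibroblasts, connective tissue cells grown in serum, after 24 h with the solvent DMSO or with an inhibitor of mTOR, the kinase that couples nutrients and growth factors to cell growth. The groups were DMSO, rapamycin at 20 ng/ml, Torin1 at 250 nM and RapaLink-1 at 10 nM, with 3 libraries each and 12 in all. Rapamycin binds FKBP12 and inhibits mTOR complex 1 in part, Torin1 blocks the ATP site of the kinase, and RapaLink-1 joins rapamycin through a linker to an ATP-site inhibitor. The labels name no strain, genotype, passage or number of embryos. They also leave it unsaid whether each library stands for its own culture, and the p-values then reflect library-to-library spread, which may be technical. The compounds differ in dose, so each contrast of compounds is a contrast of these treatments.

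The spliceosome removes introns from pre-mRNA. Its building blocks are snRNPs, each made of a small nuclear RNA, a ring of Sm or LSm proteins and proteins of its own. Sm proteins are loaded on the U1, U2, U4 and U5 RNAs in the cytoplasm, while the nuclear LSm ring binds the end of U6 RNA. U1 finds the start of an intron, U2 with SF3A and SF3B pairs with the branch point, and the tri-snRNP of U4, U6 and U5 brings in the parts of the catalytic centre. Genes of these proteins are active in nearly all cell types.

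The promoters of some members that fell with Torin1 and of some that did not are shown first, since no peak or binding data accompany these libraries. They were not chosen by rank: Lsm3 and Lsm4 fell further than Lsm2, and Prpf40b, which rose, is not printed. RefSeq held a promoter, from 250 bases before to 50 after a start site (GRCm38.p6), for 38 of the 47 members. For 6 of them the 120 bases before the start are printed, 5′ to 3′ on the gene's strand. Capitals mark matches, on either strand, to 7 motif patterns: the E-box CACGTG, the CCAAT box, the ETS site CCGGAAGT, the NRF1 site GCGCATGC, the YY1 site ATGGCGGC, the E2F sites TTTCGCGC or TTTGGCGC, and TATAAA. No pair of capital runs overlaps. The Lsm2, Lsm5 and Lsm6 windows belong to the U6 ring, that of Snrpa1 to the member that fell furthest with Torin1, and those of Sf3b2 and Prpf6 to members that did not fall with it. Other annotated transcripts of the same gene start upstream of the windows of Snrpa1 (noncoding) and Prpf6 (protein-coding), and further ones start inside the windows of Snrpa1, Prpf6 and Lsm5.
Lsm2, chr17:34981734-34981853, plus strand: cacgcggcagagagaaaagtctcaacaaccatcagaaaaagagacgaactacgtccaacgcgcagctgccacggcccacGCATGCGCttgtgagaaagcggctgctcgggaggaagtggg
Lsm5, chr6:56704700-56704819, minus strand: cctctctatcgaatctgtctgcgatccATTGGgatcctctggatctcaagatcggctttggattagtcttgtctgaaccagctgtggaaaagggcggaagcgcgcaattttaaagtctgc
Lsm6, chr8:78821153-78821272, minus strand: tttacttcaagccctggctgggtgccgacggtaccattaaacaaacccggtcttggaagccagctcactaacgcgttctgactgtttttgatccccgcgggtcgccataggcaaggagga
Snrpa1, chr7:66060216-66060335, plus strand: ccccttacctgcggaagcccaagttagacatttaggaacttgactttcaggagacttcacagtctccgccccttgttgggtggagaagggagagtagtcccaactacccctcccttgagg
Sf3b2, chr19:5295458-5295577, minus strand: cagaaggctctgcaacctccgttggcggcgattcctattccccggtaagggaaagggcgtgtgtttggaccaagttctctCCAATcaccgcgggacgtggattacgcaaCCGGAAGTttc
Prpf6, chr2:181601199-181601318, plus strand: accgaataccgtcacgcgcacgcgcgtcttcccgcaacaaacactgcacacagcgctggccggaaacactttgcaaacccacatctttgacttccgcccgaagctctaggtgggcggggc

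A CCAAT box was in the 300-base promoter of 17 of the 38 members (44.7%) and of 42.3% of the 17492 protein-coding genes in the table. The ETS site was in 7 of 38 (18.4%) against 5.7% of all, among them Lsm5, Sf3a1, Sf3b2, Snrpe and Prpf6. An E-box, the core site of MYC and related factors, was in 4 (10.5%) against 8.9%, and an NRF1 site in 3 (7.9%) against 3.9%, all 3 being LSm genes: Lsm2, Lsm8 and Lsm10. YY1 sites were in 2 (5.3%) against 3.5% and E2F sites in 2 (5.3%) against 1.2%. TATAAA was in 3 (7.9%) against 14.8%. Lsm5, which fell, and Sf3b2, which did not fall with Torin1, both carry a CCAAT box and an ETS site. These are matches of letters in a window and were not tested for enrichment or use.

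A further sequence bears on the counts of Snrpe and Snrpg in the Sm ring. Both have processed pseudogenes almost identical in sequence that also received counts, so reads may have been assigned to either. The 228 coding bases of Snrpg (chr6:86371304-86379328, plus strand), without the stop codon, are identical to those of Gm8186 (chr17:26098991-26099221, minus strand). Over the 12 libraries Gm8186 had 6684 counts, 18.08% of the 36963 of Snrpg. The copies of Snrpe, with Snrpert far ahead, together had 8.09% of the counts of Snrpe, and those of Lsm5, mainly Gm7846, had 7.81% of the counts of Lsm5. Coordinates are those of GENCODE M21 on GRCm38.
Snrpg and Gm8186: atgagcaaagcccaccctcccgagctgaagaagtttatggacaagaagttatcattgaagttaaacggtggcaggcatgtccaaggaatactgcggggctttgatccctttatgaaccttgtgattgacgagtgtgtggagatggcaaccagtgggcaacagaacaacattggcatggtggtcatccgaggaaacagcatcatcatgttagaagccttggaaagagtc

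Total counts were 30075870 to 39423703 per library, and the biological coefficient of variation over the 12 libraries was 1.48%, so that differences of a few percent could pass the test. Levels are CPM, a gene's counts scaled to a fixed library size, on sizes adjusted by the TMM method. A gene is called when edgeR's quasi-likelihood test gives it an adjusted p (Benjamini-Hochberg, over all 15917 genes) under 0.05, and log2 fold changes come with their standard errors. Of the 10 fibroblast markers 9 had a mean of at least 1 CPM, with a summed level of 19100 to 21500 CPM in the libraries. Within that sum single markers moved both ways. With rapamycin 6 were called lower and 4 higher, with Torin1 3 and 6, and with RapaLink-1 5 and 4. With Torin1 and RapaLink-1, Col3a1 (-1.28 and -1.28) and Col1a2 (-0.83 and -0.80) were lower, and Dcn (1.51 and 1.07) was higher. None of 6 epithelial, 6 leukocyte or 6 skeletal muscle markers reached 1 CPM, and Tyrobp, Cldn5, Olig2, Ckm, Myod1 and Myog were at 0 counts in all libraries. Of the 6 endothelial markers only Kdr and of the 6 neural markers only Tubb3 reached that mean. The summed neural markers were 13.1 to 17.4 CPM with DMSO and 10.8 to 11.8 CPM with rapamycin. With Torin1 they were 3.12 to 4.21 CPM and with RapaLink-1 3.04 to 4.16 CPM. The summed endothelial markers went the other way, from 0.786 to 1.53 CPM with DMSO up to 2.33 to 2.49 CPM with Torin1 and 2.69 to 2.98 CPM with RapaLink-1. The leukocyte markers summed to 0.49 to 0.753 CPM with DMSO, and to 1.44 to 1.83 CPM with Torin1 and 1.33 to 1.77 CPM with RapaLink-1. Kdr (log2 fold changes of 1.26 and 1.52) and Csf1r (1.64 and 1.65) were called higher with Torin1 and RapaLink-1. Epithelial and muscle markers summed to at most 1.28 and 0.418 CPM in a library. With RapaLink-1 Krt5 was called lower (-1.66) and Des higher (1.15), both at these low levels. The part of these markers in the results below was not tested.

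Over all genes tested, 5127 were lower and 4381 higher with rapamycin than with DMSO, 6090 and 6332 with Torin1, and 6036 and 6165 with RapaLink-1. Scaling by upper-quartile factors instead gave 4061 and 5481, 4999 and 7640, and 4823 and 7629, and shifted the median of all genes by 0.06, 0.13 and 0.14. For Torin1 and RapaLink-1 against rapamycin, 5288 and 5260 genes were lower and 5451 and 5088 higher. With upper-quartile factors these became 4489 and 4311 lower and 6359 and 6296 higher. The changes below are relative to the TMM scaling, under which the median of all genes was 0.00434, 0.04 and 0.03 in the comparisons with DMSO.

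Messages of the snRNP genes fell together under mTOR inhibition, moderately with rapamycin and more with Torin1 and RapaLink-1. The summed level of the 47 members was 6384 ± 39.4 CPM with DMSO (SD, n = 3), 5226 ± 26.9 with rapamycin, 4647 ± 12.4 with Torin1 and 4568 ± 15.6 with RapaLink-1. That is 81.8%, 72.8% and 71.5% of the DMSO level, and no library of a treated group overlapped the DMSO libraries. By summed level the deepest loss with Torin1 was in the ring of U6 RNA, at 49.6%. The shallowest was in SF3A and SF3B, at 80.8%, close to the tri-snRNP and U5 at 79.5%. A sum weighs abundant genes most. By the median log2 fold change with Torin1 the U6 ring was also lowest (-1.17), but SF3A and SF3B gave -0.58, and the other LSm proteins fell least (-0.44). Prpf40b, a U1-associated protein, rose with all 3 compounds, and Prpf6, the bridge of the tri-snRNP, fell with rapamycin and rose with Torin1 and RapaLink-1. In bulk RNA, fewer cells making a message and less of it per cell cannot be told apart.

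With rapamycin 41 of the 47 members were called lower, 1 higher and 5 neither, against 32.2% of all genes tested lower and 27.5% higher. Their median log2 fold change was -0.27, and a fall of at least 1.5-fold was called for 1 member, Snrpa1, against 2.76% of all genes. None rose that far, against 8.36%. With Torin1 40 were lower, 3 higher and 4 neither, the background being 38.3% lower and 39.8% higher, with a median of -0.57. Of these, 21 fell and 1 rose by at least 1.5-fold, against 16.2% and 21.6% of all genes. With RapaLink-1 42 were lower, 2 higher and 3 neither (background 37.9% and 38.7%), with a median of -0.60. Here 25 fell and 1 rose by at least 1.5-fold, against 15.6% and 19.6%. The 3 comparisons share the DMSO libraries, so they are given side by side and not as repeats of each other. The number of members called higher depended on the scaling, being 3, 7 and 6 with upper-quartile factors, while 40, 39 and 41 members were then called lower. The medians were then smaller, at -0.21, -0.445 and -0.46. Members past 1.5-fold were not counted under that scaling.

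**Figure D1:**
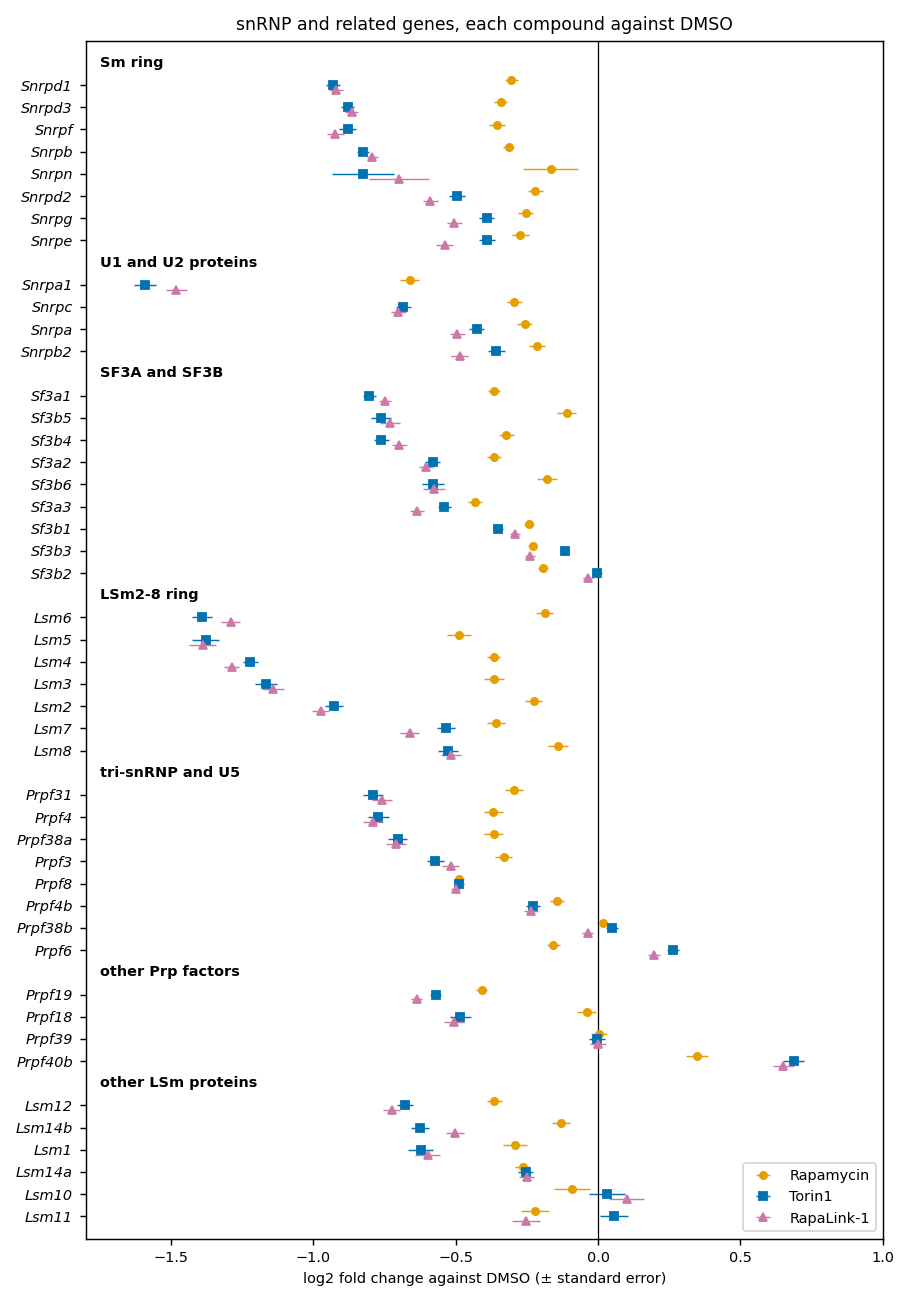
Log2 fold change against DMSO (x axis) with its standard error for members (rows, grouped by role) with rapamycin, Torin1 and RapaLink-1. Nearly all points lie left of 0, those of Torin1 and RapaLink-1 further than those of rapamycin, while Prpf40b lies right of 0 for all 3 compounds and Prpf6 for Torin1 and RapaLink-1.

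**Figure D2:**
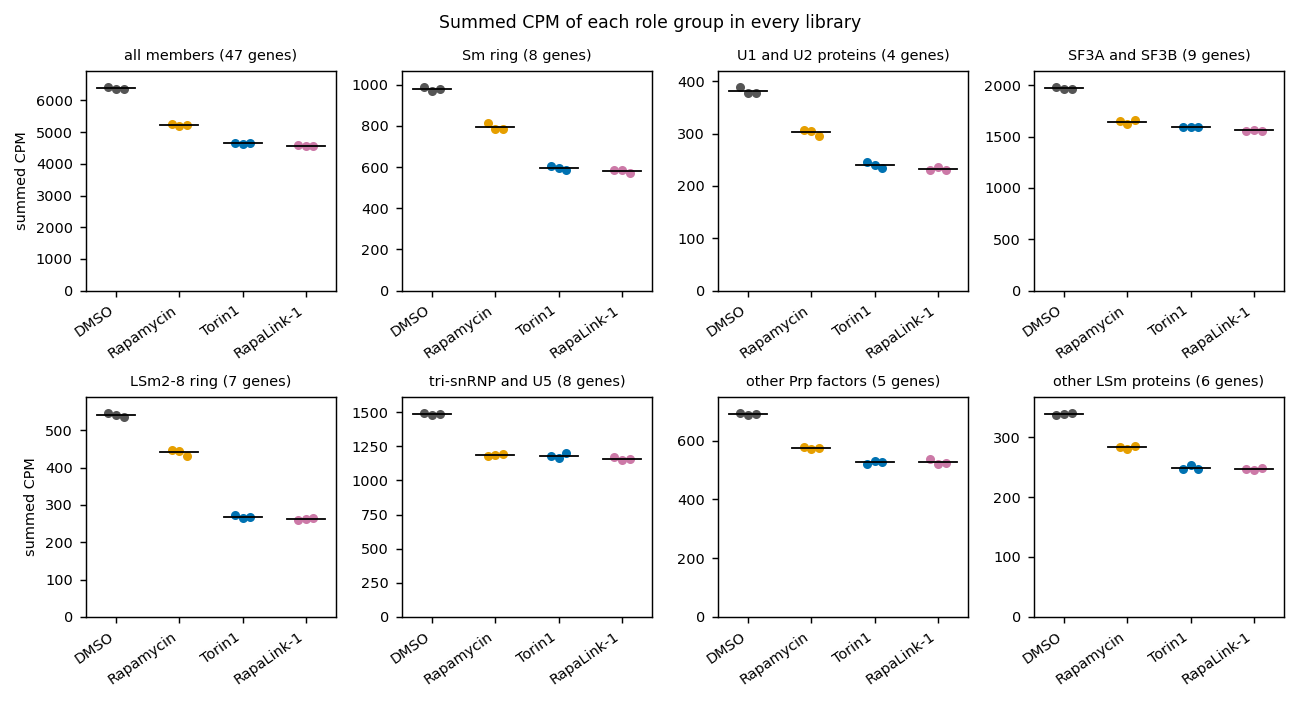
Summed CPM (y axis, from 0) of all members and of each role group in every library (points) with the group mean (line). The U6 ring falls from 540.5 to 268.1 CPM with Torin1, while SF3A and SF3B fall from 1969 to 1591 CPM.

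The Sm ring is a closed collar of proteins that holds the RNA of the U1, U2, U4 and U5 particles. All 8 Sm genes fell with Torin1 and with RapaLink-1, 7 fell with rapamycin, and their summed level went to 81.2% of DMSO with rapamycin, 60.6% with Torin1 and 59.3% with RapaLink-1. Snrpd1, which encodes SmD1, fell furthest in the group with Torin1, leaving aside genes under 5 CPM. Its libraries stood at 142, 139.7 and 139.6 CPM with DMSO, 116, 112 and 113 CPM with rapamycin, 76.95, 75.5 and 68.9 CPM with Torin1 and 73.2, 75.5 and 73.6 CPM with RapaLink-1. The DMSO, rapamycin and Torin1 libraries did not overlap, and those of RapaLink-1 lay within the Torin1 range. The log2 fold changes of Snrpd1 were -0.30 ± 0.024 with rapamycin, -0.93 ± 0.026 with Torin1 and -0.92 ± 0.026 with RapaLink-1, with an adjusted p of 5.69e-75 for Torin1 in edgeR's test. Snrpd3 and Snrpf, which encode SmD3 and SmF, gave -0.88 each with Torin1, and Snrpd2, which encodes SmD2, -0.49 ± 0.027.

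Snrpe, which encodes SmE, fell least of the ring with Torin1. It measured 81.2, 82.95 and 82.03 CPM with DMSO, 69.5, 68.5 and 66 CPM with rapamycin, 63.2, 64.7 and 60.05 CPM with Torin1 and 56.2, 57.95 and 55.3 CPM with RapaLink-1. All groups were apart for Snrpe, with RapaLink-1 lowest, and its log2 fold changes were -0.27 ± 0.029 with rapamycin, -0.39 ± 0.029 with Torin1 and -0.54 ± 0.030 with RapaLink-1. Snrpg, which encodes SmG, was close to it at -0.25, -0.39 and -0.50 with rapamycin, Torin1 and RapaLink-1. Both have the near-identical copies described above, as does Lsm5, which gave -1.38 with Torin1. With the counts of near-identical copies added, an alternative chosen after the data were seen, 41, 40 and 42 members were lower with rapamycin, Torin1 and RapaLink-1. The medians of the members were then -0.26, -0.57 and -0.60. How reads were shared between each gene and its copies was not tested. The copy of Snrpg was lower as well: Gm8186 had 737, 636 and 683 counts with DMSO and 431, 528 and 550 with Torin1. For Snrpf, 85.4% of the exonic bases overlap other genes, mainly Ccdc38 on the other strand, which had only 384 counts over the 12 libraries, so its values are uncertain to that extent.

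SmB and SmN are close relatives and come from Snrpb and the imprinted gene Snrpn. Snrpb was abundant, at 262, 252 and 259.6 CPM with DMSO, 211, 208 and 205 CPM with rapamycin, 149.5, 144 and 144 CPM with Torin1 and 148, 153 and 146 CPM with RapaLink-1. Every treated group lay below DMSO for Snrpb, and its log2 fold changes were -0.31 ± 0.019 with rapamycin, -0.82 ± 0.020 with Torin1 and -0.79 ± 0.020 with RapaLink-1. Snrpn was the rarest member with a mean of 4.46 CPM, at 5.20, 6.31 and 5.94 CPM with DMSO, 5.36, 4.89 and 5.21 CPM with rapamycin, 2.90, 3.32 and 3.55 CPM with Torin1 and 4.12, 3.67 and 3.01 CPM with RapaLink-1. Its rapamycin libraries overlapped those of DMSO, and it was not called there (-0.17 ± 0.098), whereas the Torin1 and RapaLink-1 libraries lay below (-0.82 ± 0.108 and -0.70 ± 0.106). Without DMSO replicate 1 the rapamycin value of Snrpn was -0.25 and was called. Of its exonic bases 34.1% overlap other genes, mainly Gm38393 on the same strand with 27.3%, so its values are uncertain.

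The ring of LSm2 to LSm8 binds and protects the end of U6 RNA and helps it pair with U4. All 7 genes fell with each compound, and their summed level was 81.5% of DMSO with rapamycin, 49.6% with Torin1 and 48.6% with RapaLink-1, the lowest percentage of the 7 role groups for Torin1 and RapaLink-1. Lsm6 showed the largest gap between rapamycin and Torin1. It measured 87.3, 86.5 and 83.4 CPM with DMSO, 79.1, 75.3 and 71.6 CPM with rapamycin, 32.6, 31.7 and 33.6 CPM with Torin1 and 34.6, 34.8 and 35.7 CPM with RapaLink-1. Rapamycin libraries lay just below DMSO, while Torin1 and RapaLink-1 libraries lay far below both. Its log2 fold changes were -0.19 ± 0.029 with rapamycin, -1.39 ± 0.034 with Torin1 and -1.29 ± 0.033 with RapaLink-1, with an adjusted p of 1.76e-86 for Torin1.

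Lsm4 and Lsm5 fell about as far. Lsm4 stood at 144, 143 and 146 CPM with DMSO, 114, 112 and 109.8 CPM with rapamycin, 61.9, 60.9 and 62.9 CPM with Torin1 and 58.5, 60.1 and 58.8 CPM with RapaLink-1. Lsm5 stood at 36.5, 37.8 and 38.2 CPM with DMSO, 27.1, 27.6 and 25.7 CPM with rapamycin, 14.04, 14.2 and 15.03 CPM with Torin1 and 13.3, 14.5 and 14.97 CPM with RapaLink-1. For both genes the rapamycin libraries lay between those of DMSO and those of the other compounds, which overlapped for Lsm5 only. Log2 fold changes with rapamycin, Torin1 and RapaLink-1 were -0.37, -1.22 and -1.29 for Lsm4 and -0.49, -1.38 and -1.39 for Lsm5, and Lsm3 (-0.37, -1.17 and -1.14) and Lsm2 (-0.23, -0.93 and -0.97) were similar. All of these subunits also sit in the cytoplasmic ring of mRNA decay. Lsm8, the subunit that makes the ring nuclear, had the smallest fall with each compound. It measured 55.9, 55.01 and 52.2 CPM with DMSO, 50.9, 49.2 and 47.9 CPM with rapamycin, 37.7, 38.5 and 37.1 CPM with Torin1 and 39, 36.7 and 38.5 CPM with RapaLink-1. The rapamycin libraries lay below those of DMSO by a small margin, and the log2 fold changes were -0.14 ± 0.034 with rapamycin, -0.53 ± 0.036 with Torin1 and -0.52 ± 0.035 with RapaLink-1. Lsm7 gave -0.36, -0.53 and -0.66.

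U1 and U2 each carry proteins of their own. All 4 genes of this group fell with each compound, to a summed level of 79.3%, 62.9% and 60.8% of DMSO. Snrpa1, which encodes the A′ protein of U2, a partner of the B″ protein on U2 RNA, had the lowest value of all members with each compound. Its libraries stood at 85.2, 76.8 and 80.3 CPM with DMSO, 55.04, 49.6 and 48.9 CPM with rapamycin, 28.1, 27.1 and 25.4 CPM with Torin1 and 29.1, 29 and 28.8 CPM with RapaLink-1. DMSO, rapamycin, Torin1 and RapaLink-1 libraries of Snrpa1 did not overlap between groups. Log2 fold changes were -0.66 ± 0.034 with rapamycin, -1.59 ± 0.038 with Torin1 and -1.48 ± 0.038 with RapaLink-1, with an adjusted p of 1.82e-64 for Torin1. Snrpc, which encodes the C protein that steadies U1 on the splice site, gave -0.29, -0.68 and -0.70.

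Snrpa and Snrpb2 encode related RNA-binding proteins, the A protein of U1 and the B″ protein of U2. Snrpa measured 109, 108 and 108 CPM with DMSO, 91.8, 91.5 and 89.2 CPM with rapamycin, 83.6, 79.7 and 79.4 CPM with Torin1 and 75.2, 80.7 and 75.1 CPM with RapaLink-1. Snrpb2 measured 80.4, 81.3 and 76.8 CPM with DMSO, 68.2, 69.2 and 68.3 CPM with rapamycin, 61.6, 62.8 and 61.8 CPM with Torin1 and 55.3, 57.02 and 57.8 CPM with RapaLink-1. Both fell, with RapaLink-1 lowest for Snrpb2 and the Torin1 and RapaLink-1 libraries of Snrpa overlapping. The log2 fold changes were -0.26, -0.43 and -0.49 for Snrpa and -0.21, -0.36 and -0.49 for Snrpb2, beside -1.59 for Snrpa1 with Torin1. Of the exonic bases of Snrpa, 11.0% overlap BC024978 on the other strand.

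SF3A and SF3B are the parts of U2 that hold the branch point helix. All 9 genes were called lower with rapamycin, 8 with Torin1 and 9 with RapaLink-1, but the sizes varied widely within the complex. Sf3a1, the large subunit of SF3A, fell furthest with Torin1. It measured 205, 199.8 and 194 CPM with DMSO, 157, 153 and 155 CPM with rapamycin, 114, 117 and 113 CPM with Torin1 and 116, 119 and 120.5 CPM with RapaLink-1. DMSO and rapamycin libraries of Sf3a1 were apart from each other and from the rest, and the log2 fold changes were -0.37 ± 0.021 with rapamycin, -0.80 ± 0.022 with Torin1 and -0.75 ± 0.022 with RapaLink-1. The small SF3B subunits Sf3b4, Sf3b5 and Sf3b6 fell by similar amounts with Torin1, at -0.76 ± 0.027, -0.76 ± 0.037 and -0.58 ± 0.038. The other SF3A genes gave -0.37, -0.58 and -0.60 for Sf3a2 and -0.43, -0.54 and -0.64 for Sf3a3. Of the exonic bases of Sf3a2, 16.1% overlap Plekhj1 on the other strand.

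The large scaffold proteins of SF3B gave smaller differences with Torin1. Sf3b2 measured 441, 435 and 437 CPM with DMSO, 381, 382 and 385 CPM with rapamycin, 429, 442 and 439 CPM with Torin1 and 424, 429 and 429 CPM with RapaLink-1. Its rapamycin libraries were the lowest, and its Torin1 libraries covered the range of DMSO. The log2 fold changes of Sf3b2 were -0.19 ± 0.017 with rapamycin, -0.0035 ± 0.016 with Torin1 and -0.04 ± 0.016 with RapaLink-1, the rapamycin value being the largest fall. The small RapaLink-1 fall of Sf3b2 had an adjusted p of 0.0417 and was lost without DMSO replicate 1 (-0.03), DMSO replicate 3 (-0.04) or RapaLink-1 replicate 1 (-0.03), with the length trend removed (-0.0006) and over the groups compared only (-0.02). Sf3b2 was called higher with Torin1 and RapaLink-1 with upper-quartile factors (0.12 and 0.10) and over genes of at least 5 CPM (0.09 and 0.05), and with Torin1 after removal of the length trend (0.03). Sf3b3, the propeller subunit, gave -0.23, -0.12 and -0.24, and its Torin1 value left the call with upper-quartile factors (0.01) and over genes of at least 5 CPM (-0.03). Sf3b1, the HEAT-repeat scaffold that clamps the branch helix, fell with each compound, at -0.24, -0.35 and -0.29. The rapamycin fall of Sf3b5, -0.11 ± 0.034, was no longer called with upper-quartile factors (-0.05) or over genes of at least 5 CPM (-0.05).

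The tri-snRNP joins U4, U6 and U5. The 8 genes grouped with it and U5 here include Prpf38a, Prpf38b and Prpf4b, whose roles are given below. Of the 8, 7 were lower with rapamycin and none higher. With Torin1 6 were lower and 2 higher, and with RapaLink-1 6 were lower and 1 higher. The higher call of Prpf38b with Torin1 was lost under several alternatives, also given below. Prpf31, which holds U4 and U6 together with Prpf3 and Prpf4, fell furthest with Torin1. It measured 63.5, 64.5 and 63.4 CPM with DMSO, 51.7, 50.3 and 53.7 CPM with rapamycin, 34.8, 37.5 and 37.98 CPM with Torin1 and 39.6, 37.4 and 36.2 CPM with RapaLink-1. DMSO and rapamycin libraries of Prpf31 were apart from each other and from those of Torin1 and RapaLink-1, which overlapped. Its log2 fold changes were -0.30 ± 0.033 with rapamycin, -0.79 ± 0.035 with Torin1 and -0.76 ± 0.035 with RapaLink-1. Prpf4 gave -0.37, -0.77 and -0.79 and Prpf3 -0.33, -0.57 and -0.52. Of the exonic bases of Prpf31, 18.1% overlap Gm15927 on the other strand.

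Prpf6, the bridge between U5 and the U4/U6 pair, was the only member called in opposite directions by compounds against DMSO. It measured 141, 141 and 145 CPM with DMSO, 129, 126 and 127 CPM with rapamycin, 169, 171 and 172 CPM with Torin1 and 164, 163 and 162 CPM with RapaLink-1. The rapamycin libraries lay below and the Torin1 and RapaLink-1 libraries above those of DMSO, with no overlap. Its log2 fold changes were -0.16 ± 0.022 with rapamycin, 0.26 ± 0.021 with Torin1 and 0.20 ± 0.021 with RapaLink-1, and these calls held under each alternative run. Compared directly, Torin1 was above rapamycin by 0.42 ± 0.021 and RapaLink-1 by 0.35 ± 0.022, with adjusted p of 1.89e-43 and 4.12e-35 in edgeR's test.

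Prpf8, the scaffold of the catalytic centre in U5, is given here because its values stood out once seen. It was the most abundant member in CPM, at 758, 753 and 772 CPM with DMSO, 534, 543 and 550 CPM with rapamycin, 548, 529 and 552 CPM with Torin1 and 539.5, 538 and 538 CPM with RapaLink-1. All treated libraries lay below DMSO, and the ranges of the compounds overlapped. Its log2 fold changes were -0.49 ± 0.016 with rapamycin, -0.49 ± 0.016 with Torin1 and -0.50 ± 0.016 with RapaLink-1, and the direct differences from rapamycin were 0.0013 ± 0.016 for Torin1 and -0.01 ± 0.016 for RapaLink-1. Their 95% intervals were -0.03 to 0.03 and -0.04 to 0.02. With upper-quartile factors they became 0.07 and 0.06 and passed the test, as did Torin1 over genes of at least 5 CPM (0.03). Prpf4b, a kinase of tri-snRNP proteins, fell by less, at -0.14, -0.23 and -0.23.

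Prpf38a belongs to the spliceosome before its activation, and Prpf38b is its relative. Prpf38a measured 61.3, 61.1 and 62.2 CPM with DMSO, 47.03, 48.2 and 47.9 CPM with rapamycin, 38.4, 38.4 and 36.6 CPM with Torin1 and 38.8, 35.8 and 38.4 CPM with RapaLink-1. Prpf38b measured 193, 186 and 182 CPM with DMSO, 186, 189 and 192 CPM with rapamycin, 190, 191 and 199 CPM with Torin1 and 187, 179 and 182 CPM with RapaLink-1. The treated groups lay below DMSO for Prpf38a, while all 4 groups overlapped for Prpf38b except for RapaLink-1 and Torin1. The log2 fold changes of Prpf38a were -0.37 ± 0.033 with rapamycin, -0.70 ± 0.035 with Torin1 and -0.71 ± 0.035 with RapaLink-1. Those of Prpf38b were 0.02 ± 0.021 with rapamycin, 0.05 ± 0.021 with Torin1 and -0.04 ± 0.021 with RapaLink-1, the Torin1 value having an adjusted p of 0.0252. That call was lost with DESeq2 (0.03), with its size factors (0.03), without the filter on low counts (0.03), and without DMSO replicate 2 (0.04), DMSO replicate 3 (0.03) or Torin1 replicate 3 (0.02). The RapaLink-1 value was called lower without the filter (-0.05) and without DMSO replicate 3 (-0.06) or RapaLink-1 replicate 1 (-0.05). It was called higher with upper-quartile factors (0.10) and over genes of at least 5 CPM (0.05), as was the rapamycin value (0.08 and 0.07).

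Of the 5 other Prp factors, 2 were lower with rapamycin and 3 with Torin1 and with RapaLink-1, and Prpf40b was higher with each. Prpf19, the ubiquitin ligase at the heart of the Prp19 complex, fell furthest with Torin1. It measured 265, 261 and 261 CPM with DMSO, 200.5, 194 and 198 CPM with rapamycin, 179, 176 and 175 CPM with Torin1 and 172, 169 and 165 CPM with RapaLink-1. The 4 groups of Prpf19 did not overlap, and its log2 fold changes were -0.41 ± 0.019 with rapamycin, -0.57 ± 0.020 with Torin1 and -0.64 ± 0.020 with RapaLink-1. Prpf18, a factor of the second catalytic step, was not called with rapamycin (-0.04 ± 0.034) and fell with Torin1 (-0.48 ± 0.036) and RapaLink-1 (-0.51 ± 0.036). Prpf39, a U1-associated protein, was called in none of the 6 comparisons, and its values against DMSO were 0.002 ± 0.028, -0.0039 ± 0.028 and -0.0006 ± 0.028. With upper-quartile factors they were 0.06, 0.12 and 0.14, and over genes of at least 5 CPM 0.06, 0.09 and 0.09, and were called.

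Prpf40b, a WW domain protein that contacts U1, went the other way from most members. Prpf40b measured 30.6, 30.5 and 30.2 CPM with DMSO, 39.1, 38.9 and 38.3 CPM with rapamycin, 48.7, 48.4 and 49.9 CPM with Torin1 and 48.01, 45.9 and 49.5 CPM with RapaLink-1. Its treated libraries all lay above DMSO, with rapamycin between DMSO and the other compounds. The log2 fold changes of Prpf40b were 0.35 ± 0.039 with rapamycin, 0.69 ± 0.037 with Torin1 and 0.65 ± 0.038 with RapaLink-1, with adjusted p of 5.28e-15, 1.23e-40 and 6.38e-38 in edgeR's test. Prpf40b kept these calls under each alternative run, and it was the only member that rose by at least 1.5-fold with Torin1 and with RapaLink-1.

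**Figure D3:**
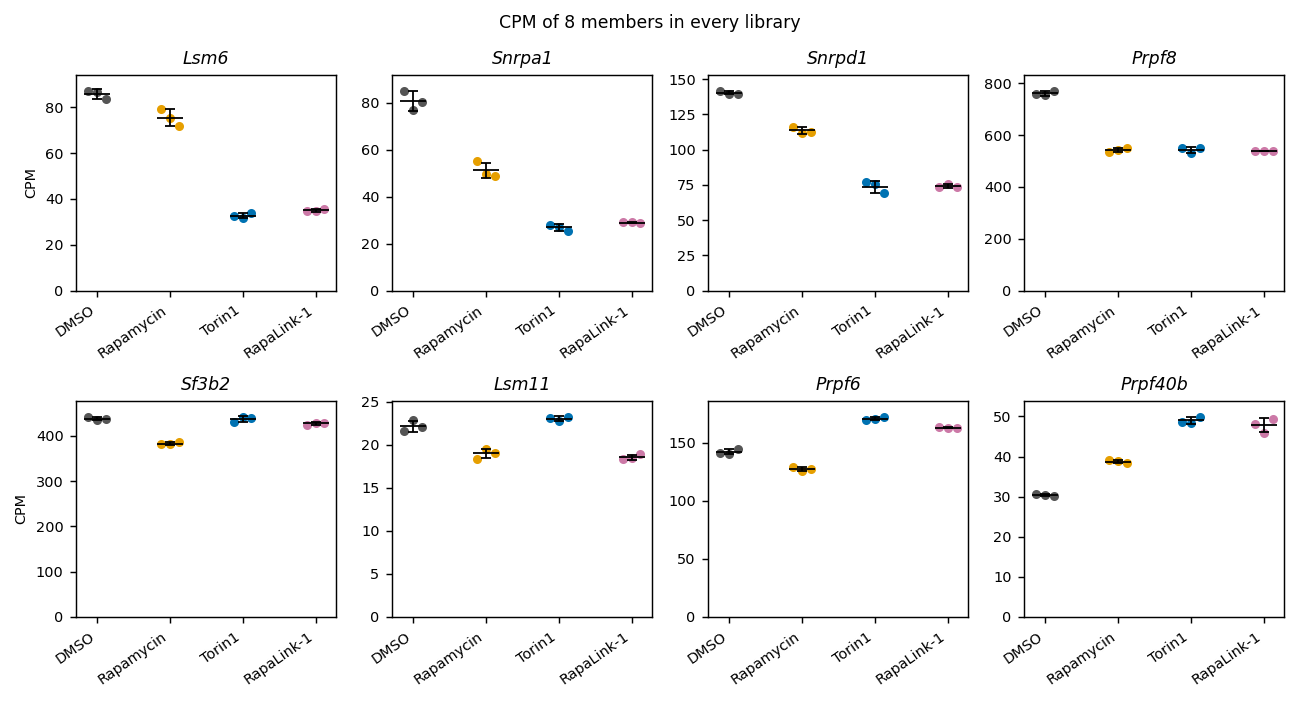
CPM (y axis, from 0) of Lsm6, Snrpa1, Snrpd1, Prpf8, Sf3b2, Lsm11, Prpf6 and Prpf40b in every library (points), with the mean and SD of the 3 libraries of each group. Lsm6 and Snrpa1 fall far with Torin1 and RapaLink-1, Prpf8 falls to the same range with each compound, Sf3b2 is lowest with rapamycin, and Prpf40b rises.

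The 6 LSm proteins outside the rings of the spliceosomal snRNPs served as relatives with other roles. With rapamycin 5 of the 6 were lower, with Torin1 4 and with RapaLink-1 5, and the summed level was 83.6%, 73.5% and 73.1% of DMSO. Lsm12 fell furthest with Torin1. It measured 104, 106 and 102 CPM with DMSO, 79.2, 82.1 and 80.7 CPM with rapamycin, 62.4, 69.6 and 62.5 CPM with Torin1 and 61.96, 63.5 and 62.7 CPM with RapaLink-1. Its DMSO, rapamycin and other libraries lay apart, and its log2 fold changes were -0.36 ± 0.027 with rapamycin, -0.68 ± 0.028 with Torin1 and -0.73 ± 0.029 with RapaLink-1. Lsm1, which replaces Lsm8 in the cytoplasmic decay ring, gave -0.29, -0.62 and -0.60, beside -0.14, -0.53 and -0.52 for Lsm8. Lsm10 and Lsm11 belong to the U7 particle, which processes histone messages.

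Lsm11 measured 21.6, 22.8 and 21.99 CPM with DMSO, 18.4, 19.5 and 19.1 CPM with rapamycin, 23.1, 22.7 and 23.2 CPM with Torin1 and 18.3, 18.5 and 18.9 CPM with RapaLink-1. The Torin1 libraries overlapped those of DMSO, while the rapamycin and RapaLink-1 libraries lay below them. Log2 fold changes of Lsm11 were -0.22 ± 0.050 with rapamycin, 0.06 ± 0.048 with Torin1 and -0.25 ± 0.050 with RapaLink-1, with no call for Torin1 (0.286, adjusted p in edgeR's test). Lsm10 measured 13.4, 12.3 and 14.3 CPM with DMSO, 12.8, 11.9 and 12.8 CPM with rapamycin, 14.3, 13.4 and 13.3 CPM with Torin1 and 13.7, 15.1 and 14.1 CPM with RapaLink-1. Each treated group overlapped DMSO and Lsm10 was called with no compound, at -0.09 ± 0.063 with rapamycin, 0.03 ± 0.062 with Torin1 and 0.10 ± 0.061 with RapaLink-1. With upper-quartile factors Lsm10 was called higher with Torin1 (0.16) and RapaLink-1 (0.24), and Lsm11 with Torin1 (0.18). Over genes of at least 5 CPM Lsm10 was called higher with RapaLink-1 (0.19) and Lsm11 with Torin1 (0.15). Lsm10 was also called higher with RapaLink-1 without DMSO replicate 3 (0.15), and lower with rapamycin after removal of the length trend (-0.14).

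Lsm14a and Lsm14b are P-body relatives. Lsm14a measured 95.4, 94.05 and 94.7 CPM with DMSO, 78.99, 77.7 and 79.8 CPM with rapamycin, 78.2, 80.7 and 79.4 CPM with Torin1 and 81.4, 78.6 and 79.1 CPM with RapaLink-1. Lsm14b measured 68.5, 69.3 and 71.4 CPM with DMSO, 63.5, 62.5 and 64.9 CPM with rapamycin, 46.4, 44.9 and 44.4 CPM with Torin1 and 49.6, 47.8 and 50.2 CPM with RapaLink-1. The treated libraries of Lsm14a lay in 1 common range below DMSO, whereas Lsm14b fell little with rapamycin and further with the others. The log2 fold changes were -0.26, -0.25 and -0.25 for Lsm14a and -0.13, -0.63 and -0.50 for Lsm14b. Of the exonic bases of Lsm14a, 7.4% overlap other genes.

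Levels can be compared between genes only per length, here as CPM per kilobase of all annotated exons, which understates genes with long rare isoforms. In the Sm ring with DMSO, Snrpd1 was highest at 168 ± 1.58 CPM per kilobase (SD, n = 3), then Snrpb at 131 ± 2.60 and Snrpf at 106 ± 1.49. Snrpn was lowest at 2.69 ± 0.263. The order went on with Snrpg (67.4 ± 0.611), Snrpe (59.8 ± 0.630), Snrpd3 (56.7 ± 0.810) and Snrpd2 (38.7 ± 1.16), and each pair of neighbours lay further apart than their SDs. In the U6 ring Lsm7 (146 ± 3.29) and Lsm4 (139 ± 1.63) were highest with DMSO and Lsm8 (12.9 ± 0.453) was lowest. With Torin1, Lsm4 came to 59.6 ± 1.01 and Lsm7 to 101 ± 4.65, and Lsm6 came to 8.01 ± 0.237, below Lsm8 at 8.99 ± 0.161. Sf3b2 was the highest SF3 gene, at 136 ± 0.904 with DMSO and 135 ± 2.06 with Torin1.

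**Figure D4:**
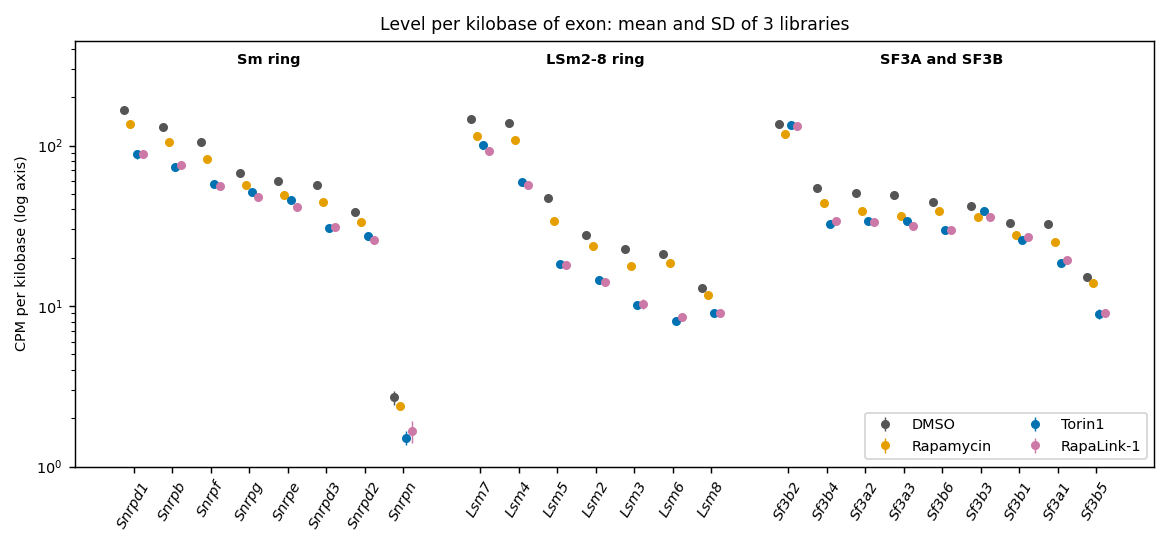
CPM per kilobase of exon (y axis, log scale) of the Sm ring, the U6 ring and SF3 genes, as the mean and SD of 3 libraries per group, ordered by the DMSO level. Within each ring the subunits span more than the treatments do, and Lsm4 drops further from Lsm7 with Torin1 and RapaLink-1.

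Gene length moved with the changes in the members. Across the 47 genes, Spearman's rho between exonic length and log2 fold change was 0.348 for Torin1, 0.369 for RapaLink-1 and 0.0947 for rapamycin, as a description of genes that share libraries. Over all 15917 genes it was -0.0531 for Torin1. After removal of a smooth length trend from each library, 42, 40 and 41 members were lower with rapamycin, Torin1 and RapaLink-1. That trend was fitted over all genes tested, so its removal need not take out the relation among the members. The part of length in their changes was not tested.

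The comparisons between compounds set the treatments side by side at their own doses. Against rapamycin, 37 members were lower and 5 higher with Torin1 (background 33.2% lower and 34.2% higher), with a median of -0.31. RapaLink-1 gave 38 lower and 4 higher (background 33% and 32%), with a median of -0.34. All 8 Sm genes, all 4 U1 and U2 genes and all 7 genes of the U6 ring were lower than with rapamycin in both comparisons. The U6 ring had medians of -0.80 and -0.78, the Sm ring of -0.52 and -0.50.

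With Torin1 the largest differences from rapamycin were in Lsm6 (-1.20 ± 0.034), Snrpa1 (-0.93 ± 0.041) and Lsm5 (-0.89 ± 0.051). With RapaLink-1 they were in Lsm6 (-1.10 ± 0.034), Lsm4 (-0.92 ± 0.027) and Lsm5 (-0.90 ± 0.051). The 5 members higher with Torin1 than with rapamycin were Prpf6 (0.42 ± 0.021), Prpf40b (0.34 ± 0.036), Lsm11 (0.28 ± 0.050), Sf3b2 (0.19 ± 0.017) and Sf3b3 (0.11 ± 0.017). With RapaLink-1 the 4 were Prpf6 (0.35 ± 0.022), Prpf40b (0.30 ± 0.036), Lsm10 (0.19 ± 0.062) and Sf3b2 (0.16 ± 0.017). Lsm10 was no longer called without RapaLink-1 replicate 2 (0.14). Snrpe was lower with Torin1 (-0.12 ± 0.030), a call lost with upper-quartile factors (-0.05). With upper-quartile factors 9 and 8 members were higher.

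Torin1 is an ATP-site inhibitor, and RapaLink-1 carries a different ATP-site inhibitor on rapamycin. Of the 47 members 12 were lower and 4 higher with RapaLink-1 than with Torin1, against 16.4% and 16.7% of all genes, and 31 were not called. The median was -0.01. None differed by 1.5-fold, beside 466 genes called lower and 184 called higher by at least that much among all 15917 tested. Lsm11 differed most (-0.31 ± 0.050), followed by Snrpe (-0.15 ± 0.031) and Snrpb2 (-0.13 ± 0.031) among those lower. Among the 4 higher members were Lsm14b (0.12 ± 0.034), Lsm6 (0.10 ± 0.039) and Sf3b1 (0.06 ± 0.018). The call of Lsm6, with an adjusted p of 0.0387, was lost with DESeq2 (0.11), without the filter (0.10), with the length trend removed (0.09) and without Torin1 replicate 1 (0.11), Torin1 replicate 2 (0.08) or RapaLink-1 replicate 3 (0.09). That of Sf3b1 was lost with the length trend removed (0.04) and without RapaLink-1 replicate 1 (0.05). The number higher was 7 with DESeq2's size factors and with upper-quartile factors. For the 31 members not called, 95% intervals of the difference lay between -0.13 and 0.36, and between -0.13 and 0.20 without the rare Snrpn.

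**Figure D5:**
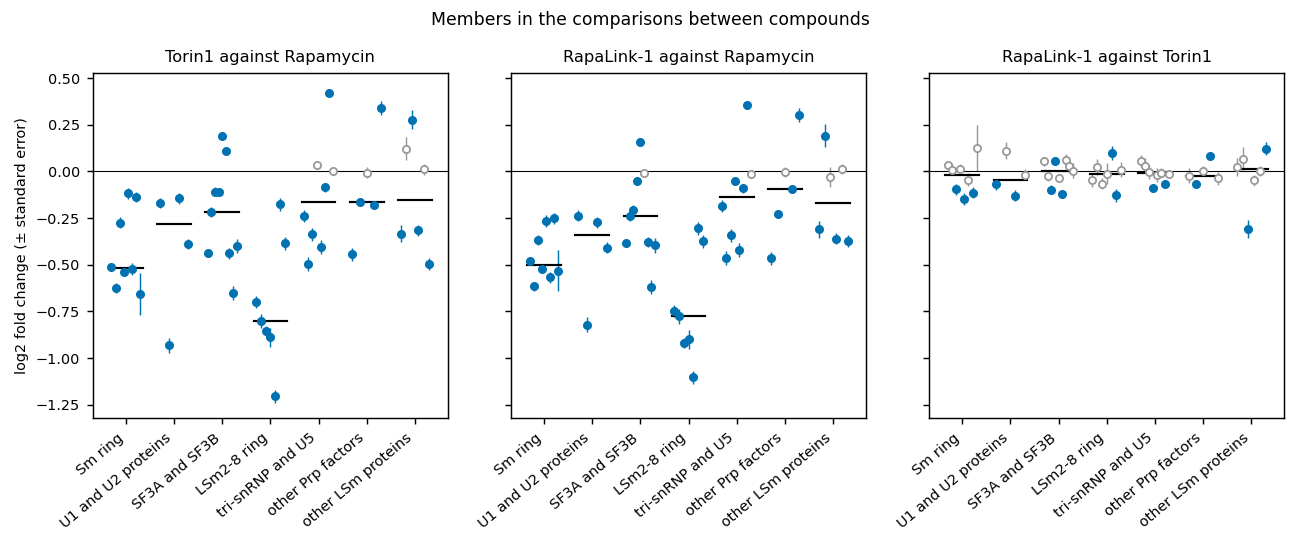
Log2 fold change (y axis, with standard error) of each member in the 3 comparisons between compounds, by role group. Filled points are called, open points are not, and lines are group medians. The U6 ring lies lowest against rapamycin, and most points lie near 0 for RapaLink-1 against Torin1.

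Other genes of the pathway, from lists chosen with earlier results of these data known, were also mostly called lower. Of all genes tested, the background for each list here and below, 32.2%, 38.3% and 37.9% were lower with rapamycin, Torin1 and RapaLink-1. In the same order 27.5%, 39.8% and 38.7% were higher. Of 22 other snRNP proteins, 16 were lower and none higher with rapamycin (median -0.23), 20 lower and 1 higher with Torin1 (median -0.48), and 19 lower and 1 higher with RapaLink-1 (median -0.45). The smallest p-values with Torin1 were those of Eftud2, the GTPase of U5, at -0.40, -0.99 and -0.91 with rapamycin, Torin1 and RapaLink-1, of Snrnp40, a U5 protein, at -0.47, -1.25 and -1.23, and of Usp39, a tri-snRNP protein, at -0.48, -1.04 and -1.04. Rnpc3, a protein of the minor spliceosome, was the member called higher, at 0.31 with Torin1 and 0.18 with RapaLink-1, and was named after its values were seen. Of 18 genes of snRNP assembly and import, which load Sm rings and cap the RNAs, 12, 16 and 17 were lower and none higher (medians -0.32, -0.52 and -0.60). Strap, a partner of the SMN complex, gave -0.44, -0.93 and -0.93, and Gemin6, an SMN complex subunit, -0.55, -1.37 and -1.35. Ncbp1, the large subunit of the nuclear cap-binding complex, gave -0.43, -0.998 and -1.02.

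Of 10 branch point genes 9 were lower and 1 higher with each compound, with medians of -0.22, -0.48 and -0.46. The branch point binding protein Sf1 gave -0.22, -0.73 and -0.73, the helicase Dhx15 -0.33, -0.70 and -0.63, and U2af2, which binds the polypyrimidine tract, -0.31, -0.62 and -0.63. The gene called higher, named after its values were seen, was Ddx39b, at 0.04, 0.14 and 0.12. Its rapamycin call was lost with DESeq2, with its size factors, without the filter, and without DMSO replicates 2 or 3 or rapamycin replicate 1, each giving 0 of 10 higher. Of 21 genes of the Prp19 complex and the catalytic steps 17, 18 and 18 were lower and 2 higher with each compound (medians -0.25, -0.32 and -0.33). Ppil1, a cyclophilin of the active spliceosome, gave -0.31, -1.30 and -1.21, Bud31 -0.26, -0.90 and -0.85, and Dhx38, the Prp16 helicase, -0.28, -0.69 and -0.66. The genes called higher were Syf2 (0.27, 0.36 and 0.31) and Slu7 (0.16, 0.45 and 0.46), also named after their values were seen.

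Genes of DNA replication and cell division moved with these results. Of 10 proliferation genes 9 were lower with rapamycin (median -0.30) and all 10 with Torin1 (median -1.48) and RapaLink-1 (median -1.23). Rrm2, a subunit of ribonucleotide reductase, gave -0.31, -1.98 and -1.46, Mcm5, a helicase subunit, -0.63, -1.79 and -1.70, and cyclin A2 (Ccna2) -0.33, -1.58 and -1.34. With RapaLink-1 against Torin1, 9 of the 10 were higher (median 0.24), against 16.7% of all genes, whereas the median of the snRNP members was -0.01. The part of proliferation in the fall of the snRNP genes was not tested. Members took 0.615% to 0.621% of all counts in the DMSO libraries and 0.533% to 0.536% under rapamycin. The share was 0.46% to 0.462% under Torin1 and 0.464% to 0.467% under RapaLink-1. It uses no TMM scaling, and it was lowest with Torin1, whereas the TMM-scaled sum was lowest with RapaLink-1.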

How the data were processed

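RNA of 12 libraries of mouse embryonic fibroblasts was sequenced, with 3 libraries each of DMSO, rapamycin, Torin1 and RapaLink-1, grouped by the treatment label. The values used are the authors' deposited whole-number read counts per gene, made with featureCounts per the file headers. The submitters' processing notes list Trimmomatic 0.36, STAR 2.5.2b, Subread 1.5.2 and GRCm38. Strandedness and the handling of multi-mapping reads were not given in the sources used here. Symbols came from GENCODE M21, which held 48970 of the 49315 gene IDs.

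The counts as deposited were tested in R 4.3.3 with edgeR 4.0.16, after filterByExpr by group and with TMM factors. A robust quasi-likelihood fit held all 12 libraries and the group as its only term, with 8 residual and, by the median, 154 prior degrees of freedom. Each of the 6 contrasts was tested on both sides, with Benjamini-Hochberg adjustment over 15917 genes. An exact permutation test of 3 against 3 libraries cannot go below 0.1. CPM per kilobase used the gene length of the count tables. Copies of members were searched among GENCODE transcripts with blastn 2.17.0+, at 90% identity over at least 200 bases. Intervals of 95% used the fitted value, its standard error and the residual and prior degrees of freedom. The lowest count of a member in a library was 90. The test was tried on simulated counts with known changes.

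The members and the lists of other genes were chosen with earlier results of these data known. Values in every library are given for the member with the largest fall and the member with the largest rise or smallest fall with Torin1 in each role group, at a mean of at least 5 CPM. They are also given for members called in opposite directions, for the relatives Snrpb and Snrpn, Snrpa and Snrpb2, Prpf38a and Prpf38b, and Lsm14a and Lsm14b, and for the largest differences between compounds. Of each other list up to 3 genes with the smallest p with Torin1 are named. The identity of these proteins was not analysed here. Counts and medians cover all members, but the values of 1 member are not reported here.

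Alternatives were DESeq2 1.42.0, its size factors and upper-quartile factors in the edgeR fit, no filter or a mean of at least 5 CPM, only the groups compared, the replicate number as a block, a length trend removed, each replicate left out, and members without shared exons or without the other LSm proteins. Adding the counts of near-identical copies was chosen after the data were seen.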

Additional observations from a re-analysis of the deposited data

How the results depend on the processing

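Counts of members called lower were within 1.5 times the reported ones in each of the 6 comparisons under the alternatives run. The median of the members kept its sign against DMSO and against rapamycin, but its size depended on the scaling and filter. For rapamycin, Torin1 and RapaLink-1 against DMSO it was -0.21, -0.445 and -0.46 with upper-quartile factors. Over genes of at least 5 CPM it was -0.22, -0.48 and -0.51. Counts called higher moved. With upper-quartile factors they were 3, 7 and 6 for rapamycin, Torin1 and RapaLink-1 against DMSO, 9 and 8 for Torin1 and RapaLink-1 against rapamycin, and 7 for RapaLink-1 against Torin1. Over genes of at least 5 CPM they were 3, 6 and 6 against DMSO and 8 for Torin1 against rapamycin. With DESeq2's size factors 7 were higher with RapaLink-1 than with Torin1. The median of the members for RapaLink-1 against Torin1 turned to 0.000144 with upper-quartile factors and ranged from -0.0133 to 0.00236 with single libraries left out, above 0 without Torin1 replicate 1 (0.00236) or Torin1 replicate 2 (0.00124).

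The 179 results of single members counted here were all values against DMSO and, between compounds, called values of selected members, with Prpf8 against rapamycin. Other values between compounds are not in these counts. For the 179 results the alternatives gave 2682 values. Of these 2593 kept direction and side of the threshold, 29 lost and 17 gained the call, and 43 changed sign, 4 of them for results that had been called. Those 4 were Sf3b3 with Torin1 (0.00871) and Sf3b2 with RapaLink-1 (0.102) with upper-quartile factors, Sf3b2 with RapaLink-1 over genes of at least 5 CPM (0.0503), and Sf3b1 for RapaLink-1 against rapamycin with upper-quartile factors (0.0247). With upper-quartile factors values near 0 also became 0.0226 for Prpf18 with rapamycin, 0.1003 for Prpf38b with RapaLink-1, 0.123 and 0.137 for Prpf39 with Torin1 and RapaLink-1, 0.123 for Sf3b2 with Torin1, and 0.0636 for Prpf8 with RapaLink-1 against rapamycin. Over genes of at least 5 CPM the same values became 0.0181, 0.0487, 0.0879, 0.0853, 0.0883 and 0.0165. With the length trend removed, Lsm10, Prpf39 and Sf3b2 with Torin1 became -0.0479, 0.0353 and 0.0334, and Prpf39 with RapaLink-1 became 0.0256. Prpf39 with rapamycin gave -0.00594 with DESeq2's size factors, -0.00898 with no filter and -0.00547 with DESeq2, and Prpf39 with RapaLink-1 gave 0.01035 over the groups compared only. Prpf8 for Torin1 against rapamycin gave -0.00627, -0.00427 and -0.00628 with those 3 settings and -0.00391 over the groups compared only. The causes were not tested.

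With single libraries left out, values of uncalled members ranged across 0: Prpf38b from -0.00377 to 0.0379 and Prpf39 from -0.0172 to 0.0188 with rapamycin, Lsm10 from -0.0229 to 0.0783, Prpf39 from -0.02084 to 0.0117 and Sf3b2 from -0.0192 to 0.000523 with Torin1, Prpf39 from -0.01515 to 0.0156 with RapaLink-1, and Prpf8 from -0.0309 to 0.0105 for Torin1 against rapamycin.

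No pairing by replicate number was seen: correlations of same-numbered libraries were -0.0391 to 0.0587, and libraries did not correlate best with their own number throughout. As replicates differed little, this cannot exclude that same-numbered libraries shared a culture or preparation. With the replicate block 41, 40 and 42 members were lower and 1, 3 and 2 higher against DMSO, and 5 were higher for RapaLink-1 against Torin1. Depth limits mainly Snrpn, at 4.46 CPM.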
